A study of Mus musculus with 9 samples.

Results

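CD45 and the tyrosine phosphatases and partner proteins that act beside it in blood cells were followed here as 5 genes: Ptprc, Ptprcap, Ptpn6, Ptpn7 and Ptpn22. Every probe set that the platform annotation assigns to 1 of these symbols alone was taken and read singly on each array. This gave 6 probe sets for 4 genes, of 45037 probe sets and 18193 genes in all. Ptpn7, a phosphatase that acts on MAP kinases in blood cells, was not analysed here, because 0 entries of the annotation name it. The genes were chosen with their values on these arrays known, so their levels and differences are given as a description, with intervals but with no test.

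The study had 3 groups of 3 arrays each: very small embryonic-like cells (VSEL), haematopoietic stem cells (HSC), and cultured mouse embryonic stem cells of the line ESC-D3 (ESC). VSEL were sorted as Sca-1+, Lin- and CD45- cells and HSC as Sca-1+, Lin- and CD45+ cells, both from bone marrow of C57BL/6 mice aged 4 weeks. ESC-D3 carries the strain label 129S2/SvPas and was grown on 0.1% gelatin with LIF, the cytokine that keeps these cells undifferentiated, at 10 ng/ml, so strain, age and culture differ from the marrow groups. Each library started from 20 cells lysed without RNA purification, and its cDNA was amplified by PCR before labelling. The labels do not say whether each library had its own mouse or culture, so a p-value here reflects no more than library-to-library spread, possibly technical. With 20 cells a library, fewer cells of a type and less RNA per cell cannot be told apart.

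CD45, the product of Ptprc, is a receptor-type tyrosine phosphatase on the surface of nearly all nucleated blood cells. It removes the inhibitory phosphate that the kinase Csk places on Src family kinases such as Lck and Fyn, and so sets how readily antigen receptors signal. SHP-1, encoded by Ptpn6, is recruited by inhibitory receptors with ITIM motifs and ends such signals, while PEP, encoded by Ptpn22, works with Csk to hold Src and Syk family kinases down. CD45-AP, encoded by Ptprcap, binds CD45 in the membrane.

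The promoters of Ptprc, Ptpn6 and Ptpn22 are shown because these genes differed in how VSEL stood against HSC: below, overlapping, and split between libraries. The windows come from RefSeq, build GRCm38.p6, and hold 250 bases before and 50 after the most 5′ start that the table lists for each gene, written 5′ to 3′ on the gene's strand. Ptprc lies at chr1:138175256-138175555 on the minus strand, Ptpn6 at chr6:124738660-124738959 on the minus strand, and Ptpn22 at chr3:103859545-103859844 on the plus strand. Capitals mark matches, on either strand, to the cores of motifs bound by blood transcription factors.
Ptprc: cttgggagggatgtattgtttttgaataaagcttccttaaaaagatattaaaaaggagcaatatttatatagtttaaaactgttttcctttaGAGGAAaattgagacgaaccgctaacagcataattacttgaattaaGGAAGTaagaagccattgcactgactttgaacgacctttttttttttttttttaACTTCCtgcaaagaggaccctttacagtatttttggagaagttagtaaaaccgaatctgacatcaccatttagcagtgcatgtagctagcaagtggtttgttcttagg
Ptpn6: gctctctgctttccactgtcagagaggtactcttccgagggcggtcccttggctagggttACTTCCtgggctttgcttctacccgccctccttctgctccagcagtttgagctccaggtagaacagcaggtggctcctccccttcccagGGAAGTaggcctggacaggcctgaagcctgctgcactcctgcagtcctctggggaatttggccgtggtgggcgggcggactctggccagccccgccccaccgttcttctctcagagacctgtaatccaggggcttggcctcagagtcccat
Ptpn22: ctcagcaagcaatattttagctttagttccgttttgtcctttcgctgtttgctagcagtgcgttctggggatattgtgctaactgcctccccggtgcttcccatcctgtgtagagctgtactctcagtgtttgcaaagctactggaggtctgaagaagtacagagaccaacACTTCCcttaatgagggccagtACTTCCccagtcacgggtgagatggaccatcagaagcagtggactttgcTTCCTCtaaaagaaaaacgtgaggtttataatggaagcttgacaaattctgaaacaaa
The PU.1 core was searched on both strands as GAGGAA. For the ETS core, which can share bases with the PU.1 core, the letters were GGAAGT. The RUNX core was read as TGTGGT on either strand. For the GATA family, the core letters used were AGATAA. The Ptprc window held 1 PU.1 core and 2 ETS cores, the Ptpn22 window likewise 1 and 2, and the Ptpn6 window 2 ETS cores and 0 PU.1 cores. These are common letters: of all 32851 promoter windows in the table, 28.3% held the PU.1 core, 23.8% the ETS core, 16.8% the RUNX core and 11.2% the GATA core. A second Ptpn22 window, downstream of the one shown, held 3 RUNX cores and 1 PU.1 core. A second Ptprc window, which overlaps the one shown, held 1 GATA core and 1 ETS core. That ETS core also lies in the window shown and was counted there.

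Values below are log2 RMA values, a scale on which 1 unit is a doubling of the array signal. Group means are given with the SD over libraries. The correlation between VSEL arrays 2 and 3 was 0.989 over all probe sets, with an SD of 0.199 for their difference over bright probe sets, while the other pairs within a group had r from 0.831 to 0.957 and an SD from 0.491 to 2.159. They differed by less than any other pair, were counted as 1 library (VSEL 2+3), and leave n = 2 for VSEL, 3 for HSC and 3 for ESC. The lower quartile of all probe sets was 3.89 to 3.95 on the VSEL arrays, 3.67 to 3.73 on the HSC arrays and 3.68 to 3.71 on the ESC arrays. No detection calls were used, so this lower quartile stands here for a dim signal, and a difference against a dim group can understate the true ratio.

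The sorted labels were set against marker genes. In VSEL, 8 pluripotency genes had medians of 9.97, 10.03 and 9.63, against 3.67 to 3.88 in HSC, and ESC were at 12.70 to 12.78. In the libraries labelled HSC, 11 T and NK cell genes had medians of 10.84 to 11.32, against 4.58 to 4.83 in ESC. For 9 genes of stem and progenitor cells the HSC medians were 6.32, 7.09 and 6.04, against 5.22, 6.01 and 5.54 in ESC, so this list set the HSC libraries little apart. Slamf1, a surface marker of stem cells, read 6.11, 7.41 and 8.58 in HSC, against 4.46, 4.32 and 4.28 in ESC, while Kit, the stem cell factor receptor, read 8.96, 7.57 and 8.48 in HSC, against 10.29, 9.47 and 10.37 in ESC. Ly6a, which encodes the gate antigen Sca-1, was not analysed here.

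Ptprc, the gene of the antigen that defined the sort, was high in HSC and dim in both VSEL and ESC on the probe set annotated to its RefSeq mRNA, 1422124_a_at. Its values were 3.59, 3.26 and 3.24 in VSEL, 13.40, 13.68 and 13.54 in HSC, and 3.17, 2.94 and 2.98 in ESC. All 3 VSEL arrays lay below the lower quartile of their own array, between the 9.3rd and the 18th percentile, whereas the HSC arrays stood at the 99.4th to 99.5th percentile. VSEL averaged 3.42 ± 0.24 and HSC 13.54 ± 0.14, a difference of -10.12 (SE 0.16, 95% interval -10.50 to -9.74). Every VSEL array was below every HSC array, as for 11.8% of all probe sets. CD45 was the sort antigen, so this difference describes the gate and is no independent result. The VSEL values lay above those of ESC by 0.39 (SE 0.16, 95% interval 0.01 to 0.77), while the median of all probe sets lay 0.17 above ESC.

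The other Ptprc probe set, 1440165_at, showed no such contrast. It is annotated to a GenBank expressed sequence tag and to no RefSeq transcript. Its values were 3.89, 3.86 and 4.56 in VSEL, 4.72, 3.48 and 5.54 in HSC, and 3.89, 3.27 and 3.46 in ESC. The groups overlapped, and the HSC arrays ran between the 19.0th and the 59.0th percentile. The VSEL mean differed from that of HSC by -0.53 (SE 0.57, 95% interval -1.91 to 0.84) and from that of ESC by 0.51 (SE 0.57, 95% interval -0.87 to 1.89). Of 20 genes, Ptprc included, that had several probe sets and 1 of them at least 8 log2 units higher in HSC than in ESC, 9 (45.0%, Ptprc included) had another probe set with a difference below 2. Of 7 genes, again with Ptprc, that had a probe set at least 8 units higher in HSC than in VSEL, 4 (57.1%, Ptprc included) had another below 2.

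Ptprcap, the CD45-associated protein, was high in both marrow groups although Ptprc was dim in VSEL. Its probe set read 13.15, 11.74 and 11.87 in VSEL, 13.40, 12.84 and 12.93 in HSC, and 6.69, 6.54 and 6.80 in ESC. The VSEL and HSC arrays overlapped, with VSEL 1 above HSC 2 and HSC 3, and all 6 marrow arrays were far above the 3 ESC arrays. Against HSC, the VSEL mean of 12.48 ± 0.95 differed from 13.06 ± 0.30 by -0.58 (SE 0.39, 95% interval -1.53 to 0.37). Against ESC it was higher by 5.80 (SE 0.39, 95% interval 4.84 to 6.75), or 55.6-fold.

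Ptpn6, which encodes SHP-1, overlapped between VSEL and HSC on both of its probe sets and was lower in ESC. Probe set 1460188_at read 11.14, 10.78 and 10.82 in VSEL, 11.86, 10.78 and 11.28 in HSC, and 7.71, 6.05 and 7.34 in ESC. Probe set 1456694_x_at read 10.85, 10.60 and 10.61 in VSEL, 11.01, 10.39 and 10.61 in HSC, and 7.65, 7.06 and 7.31 in ESC. The suffix _x_at marks a set whose probes can also match other transcripts. Both sets separated all marrow arrays from all ESC arrays.

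The difference of VSEL from HSC was -0.34 (SE 0.54, 95% interval -1.64 to 0.97) on 1460188_at and 0.06 (SE 0.25, 95% interval -0.54 to 0.66) on 1456694_x_at. These intervals leave room for a change of either sign. Against ESC, VSEL were higher by 3.94 (SE 0.54) on the first set and by 3.39 (SE 0.25) on the second, or 15.3-fold and 10.5-fold. HSC exceeded ESC by 4.27 (SE 0.48) and 3.33 (SE 0.22).

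Ptpn22, the gene of the phosphatase PEP, was split between the VSEL libraries. Its probe set read 3.98, 10.63 and 10.75 in VSEL, 11.86, 12.52 and 11.80 in HSC, and 5.45, 3.31 and 4.94 in ESC. VSEL 1 lay near the lower quartile of its array and among the ESC values, while VSEL 2 and 3 came within about 2 units of HSC. The VSEL 1 value was 6.71 below the mean of VSEL 2 and 3, a gap of at least 4 units downwards that 1.80% of all probe sets showed.

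A VSEL mean therefore describes no VSEL library for Ptpn22. It was 7.33 ± 4.74, against 12.06 ± 0.40 in HSC, a difference of -4.73 (SE 1.83, 95% interval -9.14 to -0.31). Leaving out VSEL 1 changed it to -1.37, and leaving out VSEL 2+3 changed it to -8.08. The difference of VSEL from ESC was 2.77 (SE 1.83, 95% interval -1.65 to 7.18), and it became 6.12 without VSEL 1 and -0.59 without VSEL 2+3. All 3 VSEL arrays were still below all HSC arrays, and HSC were above ESC by 7.49 (SE 1.63, 95% interval 3.54 to 11.44). That SE comes from a fit that pools the spread of all groups, and the SD was 4.74 in VSEL, 0.40 in HSC and 1.12 in ESC.

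**Figure D1:**
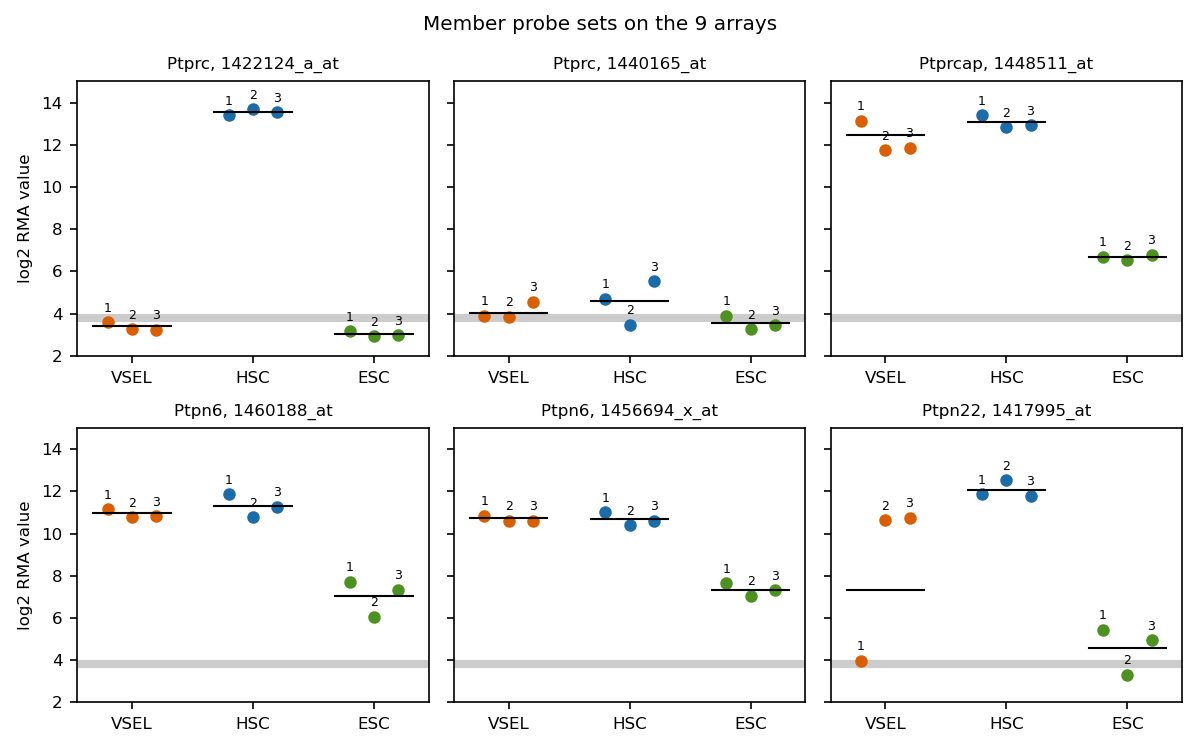
Log2 RMA values of the 6 probe sets on the 9 arrays, one panel per probe set. Numbers are array numbers, horizontal lines are group means over libraries (VSEL 2 and 3 averaged first), and the grey band spans the lower quartiles of the 9 arrays. Ptprc 1422124_a_at is high only in HSC, Ptprcap and Ptpn6 are high in VSEL and HSC, and Ptpn22 is split in VSEL.

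Read together over the probe sets, HSC were above ESC on all 9 array pairings for 5 of the 6, all but Ptprc 1440165_at, whereas 13.3% of all probe sets showed this order. Every VSEL array was above every ESC array for 4 of the 6 (Ptprc 1422124_a_at, Ptprcap and both of Ptpn6), against 30.2% of all probe sets. Every VSEL array was below every HSC array for 2 of the 6 (Ptprc 1422124_a_at and Ptpn22), against 11.8% of all probe sets. Since the genes were chosen with these values known, nothing is read from these counts. The order of the group means was HSC, VSEL, ESC for 5 probe sets, and for Ptpn6 1456694_x_at VSEL and HSC stood 0.06 apart with VSEL first.

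The other 5 probe sets differed less between the VSEL libraries than Ptpn22. Ptprcap was 1.34 higher in VSEL 1 than in VSEL 2+3, and Ptpn6 was 0.34 and 0.25 higher there. The Ptprc sets differed by 0.34 and -0.32. Across the 8 libraries, Ptprcap and Ptpn6 had Pearson correlations of 0.975 (1460188_at) and 0.989 (1456694_x_at), Ptprc 1422124_a_at and Ptpn22 0.833, and the Ptprc sets 0.574 with each other. These are descriptions over libraries that share groups and array design.

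Some other leukocyte genes, though not all that were listed, fell into the same kinds of pattern in VSEL. Of 14 pan-leukocyte marker genes that exclude Ptprc and its partners, the median was 7.76 in VSEL 1, 12.75 in VSEL 2 and 12.78 in VSEL 3, against 12.84 to 13.26 in HSC, and it was 5.08 to 5.49 in ESC. Cd48, a surface protein, read 3.85, 3.89 and 3.72 in VSEL, and Was, a regulator of actin, read 4.73, 4.69 and 4.53, both far below their HSC values on all 3 arrays, as Ptprc was. Cd52, Cd53, Lcp1 and Tyrobp were split like Ptpn22: Tyrobp, an adaptor of activating receptors, read 4.31, 13.56 and 13.69. Rac2, a GTPase of leukocytes, read 12.99, 13.71 and 13.85, and Laptm5 read 12.71, 11.90 and 11.99, both high throughout as Ptprcap was. Some listed genes went otherwise. Spi1 read 9.77, 11.53 and 11.66 in VSEL, above 9.38, 9.57 and 8.58 in HSC. Fcer1g read 11.06, 13.01 and 12.96 in VSEL, against 11.62, 11.85 and 12.31 in HSC. Itgb2 read 5.74, 7.55 and 7.19 in VSEL, against 13.25, 13.22 and 13.32 in HSC. The part of the marker genes in the values of Ptpn22 and Ptprcap was not tested.

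**Figure D2:**
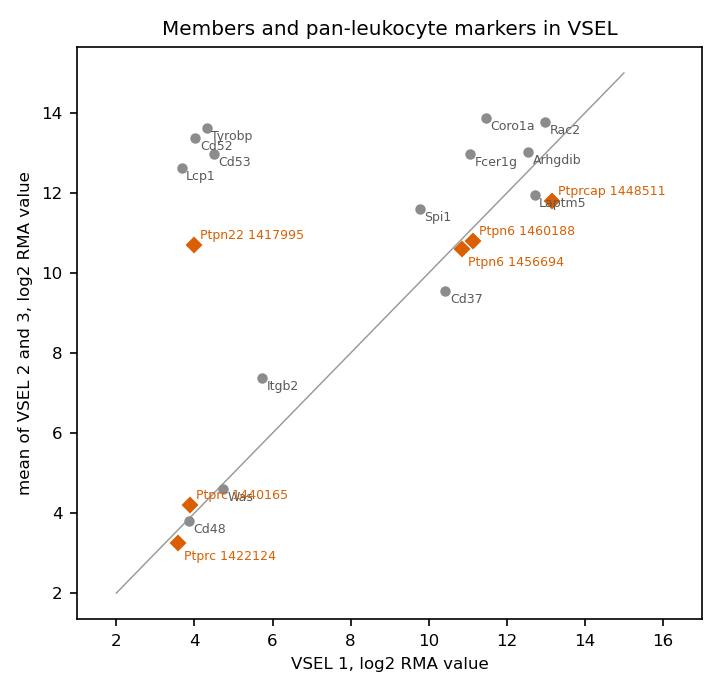
Log2 RMA value on VSEL array 1 (horizontal) against the mean of VSEL arrays 2 and 3 (vertical) for the 6 probe sets (orange diamonds) and 14 pan-leukocyte genes (grey circles), with the line of equality. Ptpn22 at 3.98 on VSEL 1 lies far above the line, near Cd52, Cd53, Lcp1 and Tyrobp, while Ptprc, Ptprcap and Ptpn6 lie close to it.

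Markers of mature lineages also varied beside these genes. The 12 granulocyte and monocyte genes had medians of 13.17, 14.59 and 14.57 in VSEL, while HSC ran from 13.60 to 13.88 and ESC from 4.68 to 4.86. The 8 B lineage genes had medians of 11.13, 9.68 and 9.73 in VSEL, against 6.48 to 7.54 in HSC. The 8 erythroid genes had medians of 12.24, 10.55 and 10.67 in VSEL, against 7.40 to 9.05 in HSC. T and NK genes had medians of 5.21, 5.30 and 5.49 in VSEL, against 10.84 to 11.32 in HSC. Nkg7, a gene of cytotoxic granules, was split in VSEL at 4.95, 11.11 and 11.35. The share of each cell type in the values of Ptprc and its partners was not tested.

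The genes most like each probe set were those with the highest Pearson correlation over the 8 libraries. Ptprc 1422124_a_at was closest to Ms4a6b (0.9997), Ccl5 (0.9996), Ifng (0.9996), Sh2d1a (0.9995) and Cd48 (0.9995). Ifng, which encodes interferon gamma, read 3.70, 3.73 and 3.48 in VSEL, 11.65, 12.21 and 11.90 in HSC, and 3.27 to 3.29 in ESC. All 5 had the same step between HSC and the other groups.

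Ptpn22 was closest to Nfkbia (0.9940), Arsb (0.9898), Itpr3 (0.9844), Nkg7 (0.9836) and Arhgap9 (0.9830), and all 5 were lowest of the VSEL arrays on VSEL 1. Nfkbia, an inhibitor of NF-kappaB, read 5.70, 9.74 and 9.56 in VSEL, 10.80, 11.45 and 10.30 in HSC, and 6.82, 5.78 and 6.53 in ESC. Ptprcap was closest to Ighm, the immunoglobulin heavy chain, on 2 of its probe sets (0.9972 and 0.9932), then Rps9 (0.9922), Laptm5 (0.9911) and Psmb8 (0.9899). Ptpn6 1460188_at was closest to Arhgap4 (0.9925), Sh3bp1 (0.9874), Myo1g (0.9841), Gsdmd (0.9829) and Lgals9 (0.9810). With 8 libraries in 3 groups, any gene that steps between the same groups gives a high value.

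**Figure D3:**
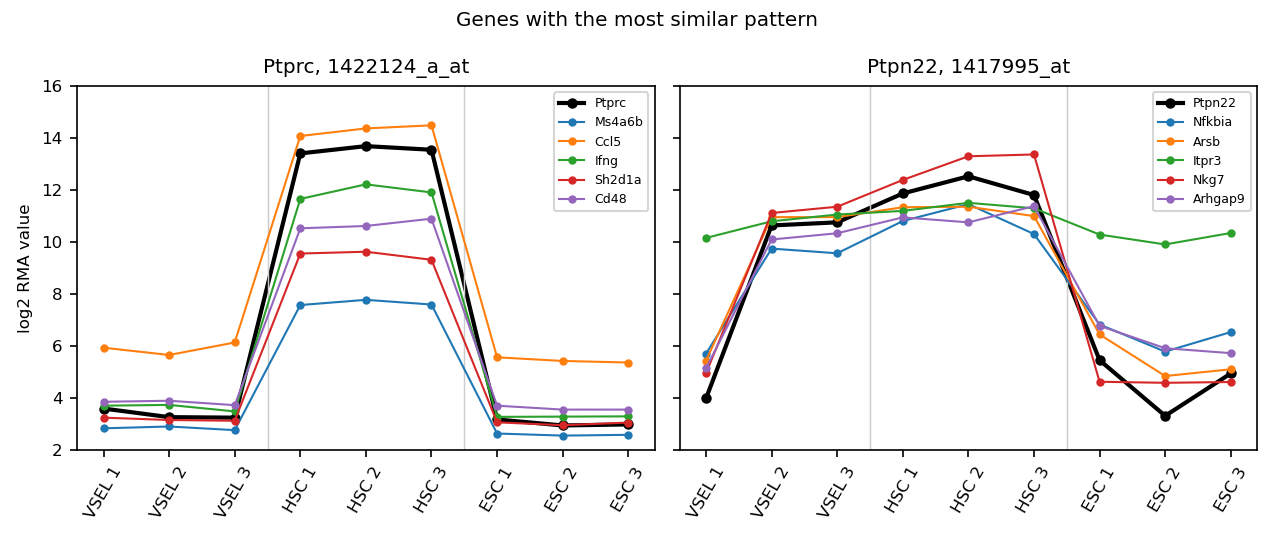
Log2 RMA values on the 9 arrays (horizontal, in the groups VSEL, HSC and ESC, set apart by grey lines) for Ptprc 1422124_a_at and Ptpn22 (black) and the 5 genes closest to each by Pearson correlation. Lines join the points of a gene and carry no order within a group. The Ptprc panel steps up only in HSC, while the Ptpn22 panel is low on VSEL 1 and on the ESC arrays.

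The kinases, adaptors and receptors that work beside these phosphatases were counted over 8 lists of 87 genes with 205 probe sets, also chosen with earlier results of these data known. Tests were limma's two-sided moderated test with Benjamini-Hochberg adjustment over all probe sets. VSEL against HSC called 15 probe sets higher and 28 lower, 21.0% of the lists, where 14.2% of all probe sets were called, 8% higher and 6.19% lower. The 15 higher calls became 4, 7 and 5 without HSC 1, 2 or 3, 8 without ESC 1 or ESC 3, 4 in a fit on those 2 groups alone and 3 with array weights, while the lower calls numbered 25 to 30 with a library left out. VSEL against ESC called 15 higher and 12 lower, 13.2% of the lists, where 14.1% of all were called, 7.13% higher and 6.93% lower. Of all calls in that comparison 50.7% were higher in VSEL, 60.8% after a further quantile normalization, 28.4% among probe sets above the median, and 32.6%, 31.3% and 34.7% without ESC 1, 2 or 3. The count of 27 list probe sets was 17, 14 and 17 without ESC 1, ESC 2 or ESC 3, of which 7, 7 and 8 were higher. HSC against ESC called 40 higher and 11 lower, 24.9% of the lists, where 10.6% of all were called, 4.42% higher and 6.21% lower.

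Of 42 probe sets of Syk family kinases and antigen receptor adaptors, 16 were lower and 2 higher in VSEL than in HSC, and 24 were not called. The called share was 42.9%, where that of all probe sets was 14.2%, and 1 gene had calls in both directions. The list median was -1.63, where that of all probe sets was 0.21. Against ESC, 3 were higher and 1 lower in VSEL, 9.52% of the list, where 14.1% of all were called. Zap70, the kinase of the T cell receptor, averaged 5.44 in VSEL and 10.94 in HSC on 1422701_at, a difference of -5.50 (SE 0.51, adjusted p = 0.00189), while its probe set 1439749_at gave -0.03 and was not called. Skap1, an adaptor that CD45 and Fyn act on, averaged 5.18 in VSEL and 11.89 in HSC on 1437249_at (-6.71, SE 0.54, adjusted p = 0.00109). Of its other probe sets, 1441322_at was also lower (-4.36) and 1440782_at was not called (-1.62). HSC exceeded ESC on 20 of the 42 and fell below on 0, 47.6% of the list, where 10.6% of all probe sets were called. Lcp2, the adaptor SLP-76, averaged 11.27 in HSC and 4.42 in ESC on 1418641_at (6.85, adjusted p = 0.00739), with VSEL at 10.04, 5.68 and 5.98. Lat, the membrane scaffold of the T cell receptor, averaged 10.42 in VSEL, 12.92 in HSC and 7.39 in ESC, higher in VSEL than in ESC by 3.03 (SE 0.48, adjusted p = 0.0142), a call lost without VSEL 2+3 (adjusted p = 0.0512). Plcg1, a phospholipase of receptor signalling, averaged 7.46 in VSEL, 11.04 in HSC and 9.53 in ESC on 1435149_at and was lower in VSEL than in ESC (-2.07, SE 0.29, adjusted p = 0.00955). Its other probe sets, 1442963_at and 1450360_at, were not called against ESC. T and NK marker medians stood beside these at 5.21 to 5.49 in VSEL and 10.84 to 11.32 in HSC, and their part was not tested.

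The kinases that CD45 acts on gave few calls. Of 15 probe sets of 6 Src family genes, 2 were higher and 1 lower in VSEL than in HSC. Of all probe sets 14.2% were called, so no direction is read from these 3 calls. Both higher calls were of 1 gene, and with array weights 0 were higher and 1 lower. Fyn averaged 4.97 in VSEL and 10.42 in HSC on 1448765_at (-5.46, SE 0.77, adjusted p = 0.00944). Its probe set 1417558_at was split in VSEL, at 6.47, 12.43 and 12.45, against 11.23, 11.78 and 11.61 in HSC, and was not called (-2.08, SE 1.61). Src itself, on 1450918_s_at, averaged 6.80 in VSEL and 5.10 in HSC (1.70, SE 0.29, adjusted p = 0.0175), a call that was lost without VSEL 1, VSEL 2+3 or HSC 1, with adjusted p up to 0.0558. Src was lower in VSEL than in ESC, at 8.74 (-1.94, SE 0.29, adjusted p = 0.012). Lck and Lyn were not analysed here.

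Csk, the kinase that opposes CD45, and its docking proteins had 3 probe sets lower and 0 higher of 12 in VSEL against HSC. Sit1, a transmembrane adaptor that binds Csk, averaged 4.98 in VSEL and 9.06 in HSC (-4.08, SE 0.43, adjusted p = 0.00297). Dok2, an adaptor that dampens receptor signals, averaged 7.78 in VSEL and 11.78 in HSC (-3.99, SE 0.62, adjusted p = 0.0132). Dok3 averaged 10.77 in VSEL, 9.93 in HSC and 6.75 in ESC, higher in VSEL than in ESC by 4.02 (SE 0.61, adjusted p = 0.0123). Csk averaged 10.37 in VSEL, 11.43 in HSC and 8.46 in ESC, and was higher in VSEL than in ESC by 1.92 (SE 0.31, adjusted p = 0.0145). In HSC against ESC, 7 of the 12 were higher and 0 lower, Csk among them (2.97, adjusted p = 0.00108), and 4 were higher without ESC 1 or ESC 3. The 7 were 58.3% of the list, where 10.6% of all probe sets were called, 4.42% higher.

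Receptors listed for ITIM motifs had 2 probe sets higher and 2 lower of 34 in VSEL against HSC. This was 11.8% of them, where 14.2% of all probe sets were called. Cd5, an inhibitory receptor of T cells, averaged 4.14 in VSEL, 11.47 in HSC and 3.72 in ESC, a difference of -7.33 from HSC (SE 0.24, adjusted p = 3.27e-05), the same step as Ptprc. Cd72, an inhibitory receptor of B cells, averaged 11.20 in VSEL, 9.54 in HSC and 5.28 in ESC, and exceeded ESC by 5.92 in VSEL (SE 0.34, adjusted p = 0.000715). Pirb, an inhibitory receptor of myeloid and B cells, averaged 10.83 in VSEL, 9.41 in HSC and 5.20 in ESC (5.63 against ESC, SE 0.25, adjusted p = 0.000335). B lineage medians stood at 9.68 to 11.13 in VSEL and at 6.48 to 7.54 in HSC beside Cd72, and were not tested as to their part.

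Other tyrosine phosphatases were called in VSEL against HSC at about the share of all probe sets, which was 14.2%, or below it. The share was 10.3% for non-receptor and 14.6% for receptor genes, so no direction is read from these counts. Among 13 non-receptor genes with 29 probe sets, 1 was higher and 2 lower in VSEL than in HSC, and Ptpn18, which dephosphorylates receptor kinases of the HER2 family, was higher in VSEL than in ESC by 5.12 on 1419125_at (SE 0.36, adjusted p = 0.0012) and not called on 1444894_at (0.50). On the called set Ptpn18 averaged 11.65 in VSEL, 12.57 in HSC and 6.53 in ESC, an order of levels that Ptprcap also had. Among 16 receptor genes with 48 probe sets, 6 were higher and 1 lower in VSEL than in HSC, and the 6 became 3, 3 and 2 without HSC 1, 2 or 3. The lower one was Ptpre, a phosphatase with a role in signalling of blood cells, at 4.50 in VSEL and 9.20 in HSC on 1418540_a_at (-4.70, SE 0.61, adjusted p = 0.007), while 1418539_a_at was not called (0.34). Ptprs, a receptor phosphatase of neurons and epithelia, averaged 9.14 in VSEL and 6.67 in HSC on 1426794_at (2.46, SE 0.41, adjusted p = 0.0165), a call that was lost in a fit on those 2 groups alone. Of its other probe sets 1436855_at was also higher (0.72) and 1426795_at and 1427688_a_at were not called. Ptprf, a receptor phosphatase of epithelia, averaged 7.69 in VSEL, 5.32 in HSC and 10.16 in ESC on 1420842_at, and HSC were lower than ESC (-4.84, SE 0.39, adjusted p = 0.000569). Ptpn2, a phosphatase of JAK kinases, averaged 7.45 in VSEL, 9.93 in HSC and 10.19 in ESC on 1417140_a_at, lower in VSEL than in ESC (-2.74, SE 0.43, adjusted p = 0.0133), while its other 3 probe sets were not called.

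MAP kinases, on which Ptpn7 acts, were listed with Ptprr and Ptpn5, phosphatases that also act on them. The 12 probe sets gave 1 call in VSEL against HSC, 8.33% of them, where 14.2% of all probe sets were called. Mapk14, the p38 kinase, averaged 7.50 in VSEL, 11.44 in HSC and 10.36 in ESC on 1416703_at, lower in VSEL than in HSC by 3.95 (SE 0.23, adjusted p = 0.00035) and than in ESC by 2.86 (SE 0.23, adjusted p = 0.00177). Its probe set 1442364_at went the other way against ESC (0.67, SE 0.17, adjusted p = 0.0481), a call that 7 of the 8 libraries ended when left out. Of the 4 genes that regulate alternative splicing of CD45, 13 probe sets gave 2 higher and 2 lower calls in VSEL against HSC. This was 30.8% of them, where 14.2% of all probe sets were called. Both lower calls were of Hnrnpll, and 0 were lower after a further quantile normalization, after cyclic loess or with array weights. Hnrnpll, which drives skipping of CD45 variable exons in lymphocytes, averaged 7.86 in VSEL, 9.30 in HSC and 10.11 in ESC on 1425255_s_at (-2.25 against ESC, SE 0.24, adjusted p = 0.00425). The array reports 3′ probe sets, so isoforms of Ptprc were not read.

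**Figure D4:**
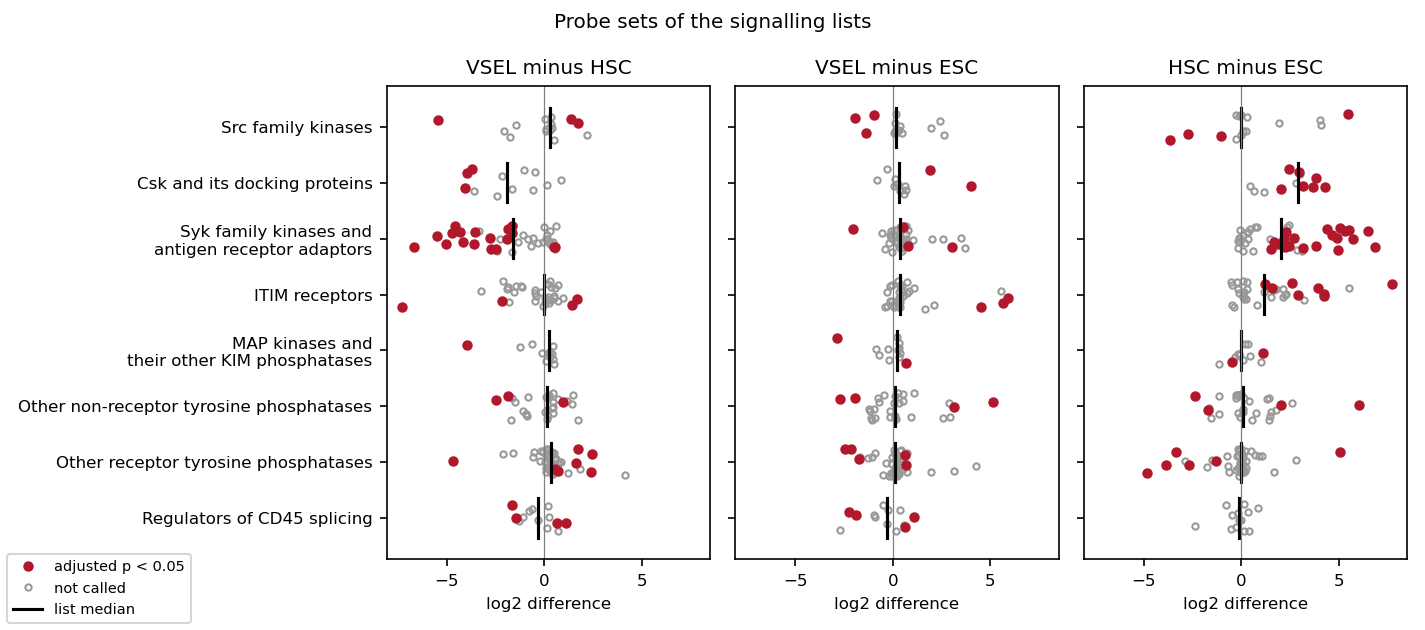
Log2 differences of the 205 probe sets of the 8 signalling lists in 3 comparisons, VSEL minus HSC, VSEL minus ESC and HSC minus ESC. Red points passed an adjusted p of 0.05, open points did not, and black bars are list medians. Syk family and adaptor probe sets lie mostly left of 0 in VSEL minus HSC (median -1.63) and right of 0 in HSC minus ESC (median 2.05).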

How the data were processed

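Each group was measured on 3 Affymetrix mouse expression arrays, in libraries of 20 sorted cells. The deposited values are log2 expression values that the authors made with RMA in Partek 6.5, per the submitters' processing notes. Which settings were used, and which arrays were normalized jointly, is not stated by the labels or files. The values were used as deposited, without 64 control probe sets of 45101. The annotation gave 34945 of the other probe sets 1 gene, 932 several genes and 9160 none. Of the 34945, 34741 took their symbol from RefSeq, assembly GRCm38.p6, whether or not it differed from that of the annotation.

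One model over all groups was fitted by lmFit and eBayes (limma 3.58.1, R 4.3.3, 8 libraries, 5 residual degrees of freedom), with p-values adjusted by Benjamini-Hochberg over all probe sets and called at 0.05. Precision is limited by how few arrays there are.

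The genes and lists were chosen with earlier results of these data known. Named are all probe sets of the 5 genes, the 5 closest genes by correlation for probe sets spanning at least 4 log2 units, and markers. From the lists, a rule picked the 3 called probe sets with the largest difference per comparison and direction, and at most 2 per list. Not all of those picked are described above, and Fcgr2b, Ptpn13, Ptpn12, Ptpn14 and Lax1 are among those left out. Same-numbered samples of different groups had deviations that correlated between -0.092 and 0.16, and so were not paired. Alternatives were other scalings, filters, fits and left-out libraries.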

Additional observations from a re-analysis of the deposited data

How the results depend on the processing

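The rule picked 49 list differences, including some not described above. Of these, 31 stayed called with each of the 8 libraries left out in turn, 18 were lost at least once, and 0 changed sign. Counts of called signalling probe sets were 43 (VSEL against HSC), 27 (VSEL against ESC) and 51 (HSC against ESC). With 1 probe set per gene the first 2 counts were 25 and 15, on the 2 groups alone 27 and 16, and with array weights 24 and 15. Left-out libraries gave 32 to 41, 14 to 28 and 36 to 53, with 17, 14 and 17 for VSEL against ESC without ESC 1, 2 or 3. With all 9 arrays separate the counts were 62, 34 and 56. No paired samples were found, and with the replicate number as a block the counts were 49, 29 and 50. Over all probe sets, 56.4% of the calls in VSEL against HSC were higher in VSEL, 63.7% after a further quantile normalization, 49.1% after cyclic loess, 36.8% among probe sets above the median, 31.3% on the 2 groups alone, 38.9% with array weights, and 41.3%, 41.4% and 39.0% without HSC 1, 2 or 3. In VSEL against ESC the share was 34.7% on the 2 groups alone and 41.0% with array weights. The median of all probe sets was 0.21 in VSEL against HSC, 0.10 after quantile normalization and 0.02 after cyclic loess, and 0.17, 0.05 and -0.00 in VSEL against ESC. Left-out libraries moved Ptpn22 between -8.08 and -1.37 against HSC and between -0.59 and 6.12 against ESC, and Ptprcap between -1.25 and 0.09 against HSC and between 5.12 and 6.47 against ESC. Cyclic loess gave 6.50 for Ptprcap, 4.16 for Ptpn6 1456694_x_at and 4.70 for Ptpn6 1460188_at in VSEL against ESC, and 0.54 for Ptpn6 1456694_x_at against HSC. HSC against ESC for that set was 3.61 after quantile normalization and 3.62 after cyclic loess. The cause was not tested. Only 2 VSEL libraries and the absence of detection calls limit dim values such as those of Ptprc in VSEL.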
